A study of Mus musculus with 12 samples.

Results

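The genes examined here encode the receptors of the interleukin-6 (IL-6) cytokine family that signal through gp130, the protein made by Il6st, together with the kinases, transcription factor and inhibitor that act directly downstream. They are the 9 genes Il6st, Lifr, Osmr, Cntfr, Il6ra, Jak1, Jak2, Stat3 and Socs3, taken by symbol from the 24985 genes of the count table, and all 9 passed the filter on low counts, as did 14742 genes in all. Il6st was selected on its measured levels in these same mice, so its values are given as a description without a test. The other 8 genes were taken by their known role, but with earlier results of these data known. The counts below cover these 8 genes and are not independent of that choice. RNA came from the right dorsal hippocampus of 12 wild-type C57Bl6/J mice, 3 for each combination of injection and diet. At 6 months of age each mouse received a unilateral injection of PBS as a sham or of 1 µg of tau purified from the brains of patients with Alzheimer's disease (AD tau). Mice ate LabDiet 5001 containing 5% Na-acetate or a control diet matched in calories and labelled as standard chow from TestDiet, so that acetate, its sodium and any other difference between the chows cannot be told apart. Tissue was taken 6 months after the injection, 24 hours after remote recall of a fear memory. The groups are called PBS-control and PBS-acetate, and likewise tau-control and tau-acetate. All groups share the surgery, the fear conditioning and the wild-type genotype, the injection was into 1 side of the brain, the 3 mice sequenced per group were picked as representative of it, and the tau seeds were human.

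Gp130 binds no cytokine strongly by itself and is shared by the whole family. IL-6 first meets its own receptor IL6RA, ciliary neurotrophic factor meets CNTFR, and leukemia inhibitory factor and oncostatin M use LIFR or OSMR as the partner of gp130. Once the receptor chains meet, the kinases JAK1 and JAK2 phosphorylate STAT3, which enters the nucleus and switches on genes such as Socs3, whose product then blocks the receptor. In the brain this pathway is known for its part in astrocyte reactivity.

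Each library held 12983233 to 20218340 counts, and the biological coefficient of variation common to all genes was 7.25%. All 12 libraries are labelled male, yet Xist, the RNA that silences 1 X chromosome in female cells, had 13583 to 25991 counts in each of the 12, while 9 Y-chromosome genes were at 0 counts. All values below therefore rest on libraries that go against that label, in every group alike. General neuron markers summed to 9476 to 10786 counts scaled by library size (CPM) and astrocyte markers to 4239 to 4747 CPM. Markers of the hippocampal fields CA1 and CA3 are given below. The 4 haemoglobin genes had 0 counts in all mice, and since they are near-identical copies this shows nothing about blood.

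STAT3 binds DNA at the palindrome TTCNNNGAA. The 250 bases before the start were searched on both strands, which read alike for this motif, in RefSeq promoters of GRCm38.p6. All 9 genes were matched, and 1 of their 15 starts, that of Socs3, held the motif. Of all 32851 windows of this length 7.02% held it, and of all 27025 genes 8.13% had a start that did. The promoters below are those of Il6st, of Stat3, of Socs3, and of the STAT3 target genes Vim and Bcl6, which differed between the diets in opposite directions in PBS-injected mice. They are written 5' to 3' on the strand of the gene, with the motif in capitals. The coordinates are chr13:112463820-112464069 on the plus strand for Il6st, chr11:100939541-100939790 on the minus strand for Stat3, chr11:117969367-117969616 on the minus strand for Socs3, chr2:13574061-13574310 on the plus strand for Vim, and chr16:23981284-23981533 on the minus strand for the second of 2 starts of Bcl6.
Il6st: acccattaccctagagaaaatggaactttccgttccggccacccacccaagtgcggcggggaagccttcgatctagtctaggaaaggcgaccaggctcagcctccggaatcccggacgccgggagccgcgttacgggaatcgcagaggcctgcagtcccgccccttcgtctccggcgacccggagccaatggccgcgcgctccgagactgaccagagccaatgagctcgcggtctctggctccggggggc
Stat3: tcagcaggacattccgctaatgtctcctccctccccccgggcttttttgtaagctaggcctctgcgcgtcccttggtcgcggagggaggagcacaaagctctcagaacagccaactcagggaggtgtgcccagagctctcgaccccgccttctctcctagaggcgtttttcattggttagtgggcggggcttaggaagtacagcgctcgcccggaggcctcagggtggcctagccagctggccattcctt
Socs3: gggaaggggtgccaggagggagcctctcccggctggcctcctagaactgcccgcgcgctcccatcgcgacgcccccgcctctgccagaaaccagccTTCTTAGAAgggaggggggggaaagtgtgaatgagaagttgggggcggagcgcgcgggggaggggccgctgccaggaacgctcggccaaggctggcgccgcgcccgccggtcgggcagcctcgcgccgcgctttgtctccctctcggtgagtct
Vim: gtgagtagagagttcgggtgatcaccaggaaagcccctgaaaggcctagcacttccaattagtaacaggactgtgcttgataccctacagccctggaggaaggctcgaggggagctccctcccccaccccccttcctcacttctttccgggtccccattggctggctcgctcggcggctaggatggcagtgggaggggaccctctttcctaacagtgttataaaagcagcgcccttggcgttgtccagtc
Bcl6: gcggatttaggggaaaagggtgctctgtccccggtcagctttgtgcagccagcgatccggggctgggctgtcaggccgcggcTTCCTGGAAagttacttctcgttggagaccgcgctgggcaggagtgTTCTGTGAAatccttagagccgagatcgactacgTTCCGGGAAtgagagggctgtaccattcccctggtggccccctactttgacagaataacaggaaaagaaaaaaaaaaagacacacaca
The Socs3 motif TTCTTAGAA began 154 bases before the start. Bcl6 held TTCCTGGAA, TTCTGTGAA and TTCCGGGAA at 168, 122 and 88 bases before this start. The other Bcl6 start held 1 copy, as did 1 of 2 starts of the adaptor gene Gab1 described below. No match in the windows of Il6st, Stat3 and Vim says only that these letters do not occur there.

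Levels were compared between genes after division by exon length, as CPM per kb, in mean ± SD over the 12 mice. Jak1 was the highest at 32.2 ± 1.20 CPM per kb, followed by Cntfr at 20.4 ± 1.67 CPM per kb. The ranges of these over mice overlapped neither each other nor those of the other 7 genes. Jak2 followed at 9.08 ± 0.552 CPM per kb, Il6st at 7.39 ± 0.715 CPM per kb, Stat3 at 6.51 ± 0.905 CPM per kb and Lifr at 5.34 ± 0.544 CPM per kb, and the ranges of neighbours in this order overlapped. Il6ra, at 0.715 ± 0.119 CPM per kb, Osmr, at 0.531 ± 0.0926 CPM per kb, and Socs3, at 0.394 ± 0.151 CPM per kb, were lower in every mouse than the other 6 genes and overlapped among themselves. Among the genes of the IL-6 family ligands, Il6 itself had 9 counts in the 12 mice together and Ctf2 had 0.

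**Figure D1:**
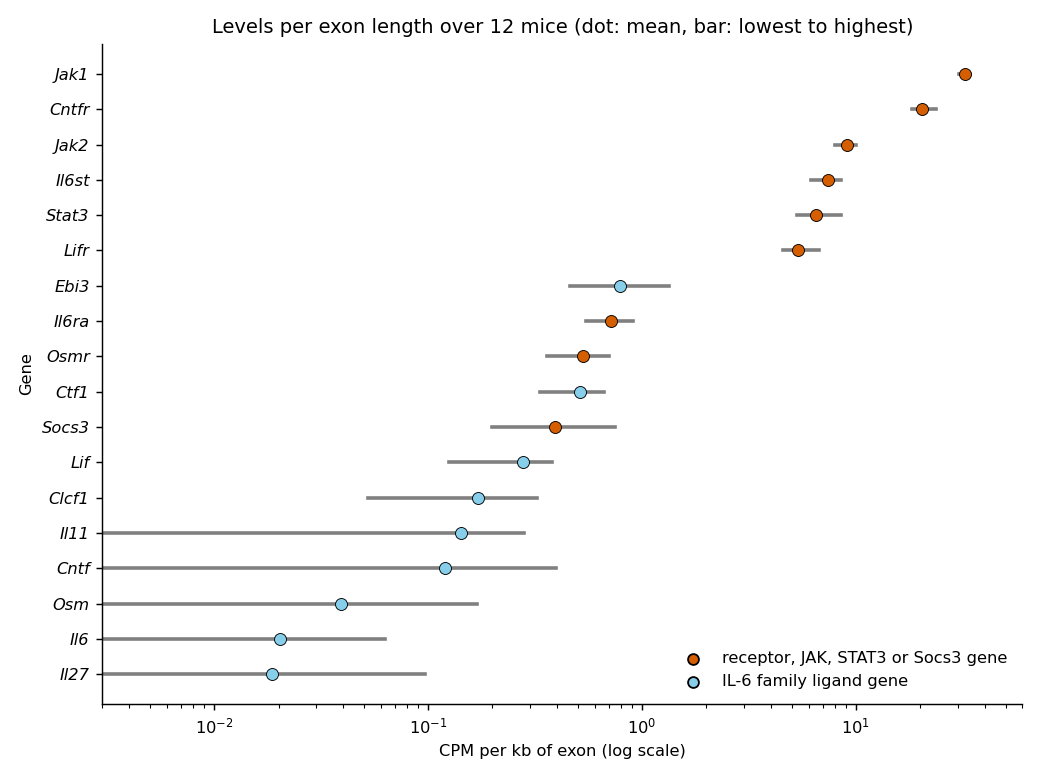
Mean level over 12 mice (dot) and lowest to highest mouse (bar) in CPM per kb of exon, on a log axis cut at its left edge for genes with a mouse at 0, for the 9 receptor, JAK, STAT3 and Socs3 genes and for 9 ligand genes (Ctf2 had no counts). Jak1 and Cntfr lie above the others, and Il6 and Il27 lie lowest.

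Il6st lies on chromosome 13 at 112464070 to 112510086 of GRCm38, on the plus strand. Its level was 84.9, 94.4 and 85.1 CPM in the PBS-control mice, 71.4, 70.2 and 68.5 CPM in the PBS-acetate mice, 82.5, 80.5 and 86.4 CPM in the tau-control mice, and 86.5, 86.5 and 87.1 CPM in the tau-acetate mice. The PBS-acetate group was the one apart: its highest mouse lay below the lowest mouse of each other group. In order, the group means were 88.2 ± 5.44 CPM (SD, n = 3) for PBS-control, 86.7 ± 0.331 CPM for tau-acetate, 83.1 ± 3.05 CPM for tau-control and 70.1 ± 1.45 CPM for PBS-acetate. PBS-control and tau-acetate overlapped, and the gap from tau-acetate to tau-control, 86.5 against 86.4 CPM at the nearest mice, was smaller than the spread within the tau-control group. On the acetate diet Il6st was 0.31 higher on the log2 scale after tau (SE 0.06), and in PBS-injected mice it was 0.33 lower on acetate (log2 fold change -0.33, SE 0.06), which is a level 20.5% lower (percent change -20.5). On the control diet the log2 difference between tau and PBS was -0.08 (SE 0.06), and between the diets in tau-injected mice it was 0.06 (SE 0.06). The diet effect in tau-injected mice exceeded that in PBS-injected mice by 0.39 on the log2 scale (SE 0.08). With each mouse left out in turn this last difference stayed between 0.34 and 0.42. Il6st was picked for its pattern in these mice, so this range and its spread within groups only describe the pattern. Il6st varied little among mice of a group, with a coefficient of variation of 3.91% against 2.78% from counting alone.

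In bulk tissue fewer cells of a type and less RNA per cell cannot be told apart, and some marker lists differed between the groups. The 6 oligodendrocyte markers, all of which passed the filter, summed to 6869 to 8859 CPM in PBS-control, 4311 to 5933 CPM in PBS-acetate, 4556 to 5510 CPM in tau-control and 5196 to 8353 CPM in tau-acetate mice. They were thus low in PBS-acetate mice, as Il6st was, but equally low in tau-control mice, where Il6st was not. The means of Stat3, Gab1 and Vim, described below, were lower in both of these groups than in the others, as the oligodendrocyte markers were. The interaction of diet and injection was above 0 for 6 of the 6 oligodendrocyte markers, with a median of 1.07 on the log2 scale and none called by edgeR. The 5 CA1 neuron markers summed to 471 to 598 CPM in PBS-control and 727 to 951 CPM in PBS-acetate mice, and to 618 to 776 CPM and 662 to 942 CPM in the tau-control and tau-acetate mice. Of these 5, 3 were called higher on acetate in PBS-injected mice. The 4 measured CA3 markers summed to 186 to 228 CPM in PBS-control, 95.1 to 172 CPM in PBS-acetate, 144 to 168 CPM in tau-control and 114 to 176 CPM in tau-acetate mice, and 2 were called lower on acetate after PBS. The sums of astrocyte and microglia markers moved less, with group means of 4443 to 4610 CPM and 396 to 438 CPM. Of the 8 astrocyte markers, though, 1 was called higher and 1 lower on acetate after PBS, and 1 was called higher for the interaction. The 6 choroid plexus markers summed to 87.5 to 119 CPM in PBS-control and 65.0 to 81.8 CPM in PBS-acetate mice. They summed to 93.6 to 204 CPM in tau-control and 80.0 to 480 CPM in tau-acetate mice. Their mean was lowest in PBS-acetate mice, as that of Il6st was. On acetate after PBS 5 of the 6 were lower, with a median log2 fold change of -0.93 and 1 called. The value of 480 CPM was that of tau-acetate mouse 3, against 65.0 to 204 CPM in the other 11. Tau-acetate mice 1 and 2, at 81.2 and 80.0 CPM, lay within the PBS-acetate range. The part of these markers in the levels of Il6st and the other genes was not tested.

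**Figure D2:**
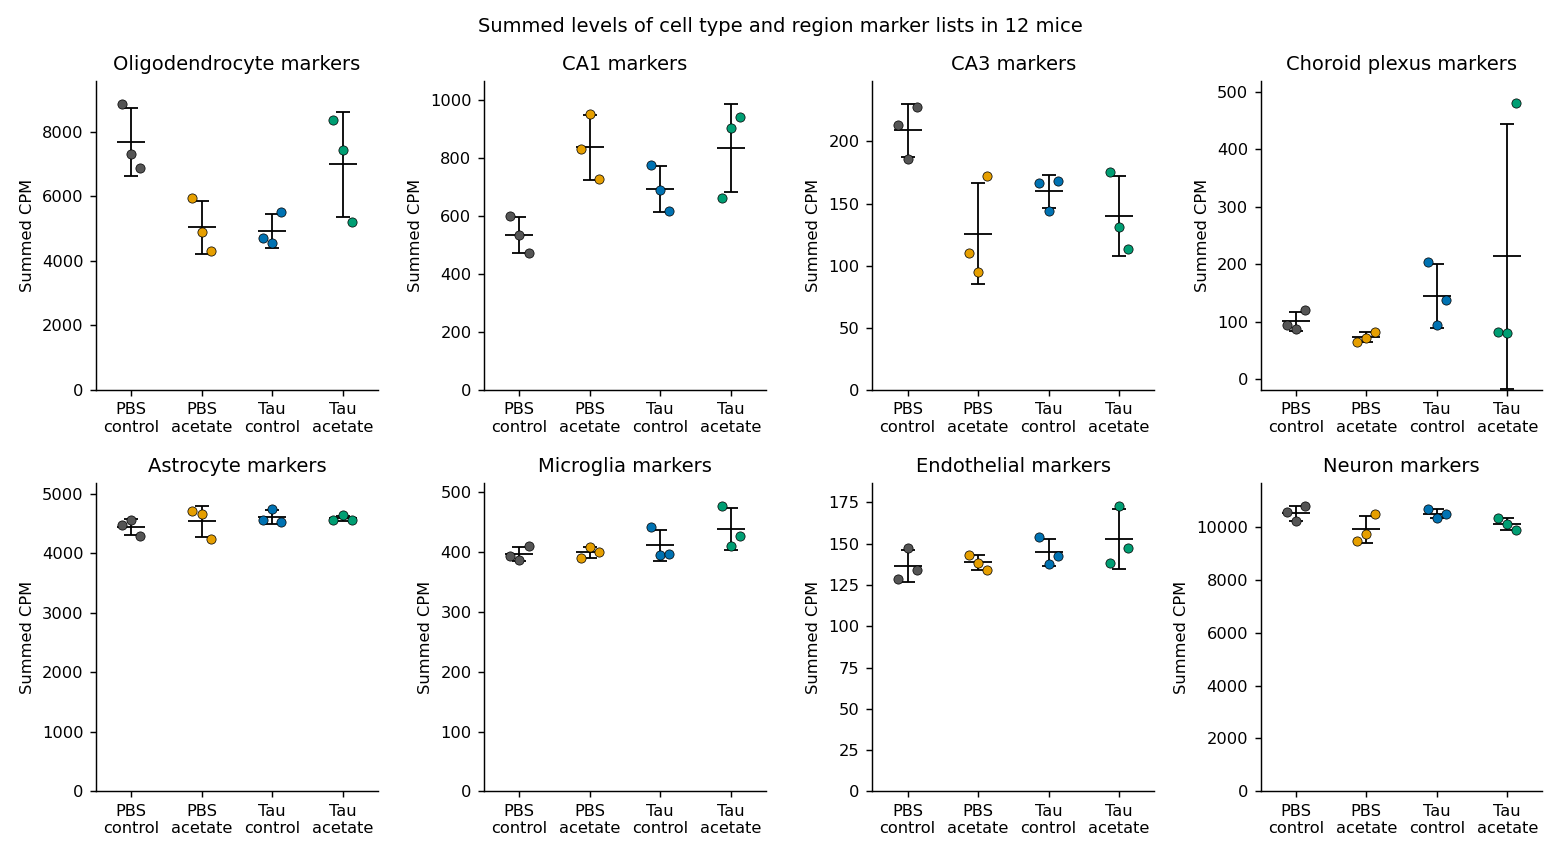
Summed CPM of 8 marker lists in each of 12 mice by group (points), with the group mean and SD (bars, n = 3). Oligodendrocyte markers were lower in PBS-acetate and tau-control than in PBS-control mice, CA1 markers were higher in PBS-acetate than in PBS-control mice, and 1 tau-acetate mouse stood apart in choroid plexus markers at 480 CPM.

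Neither partner receptor was called in any comparison. Lifr, which encodes the receptor chain for leukemia inhibitory factor (chromosome 15, 7090614 to 7197489, plus strand), was at 59.5, 58.6 and 59.7 CPM in PBS-control, 57.4, 56.0 and 49.1 CPM in PBS-acetate, 53.9, 72.5 and 60.2 CPM in tau-control and 54.2, 57.6 and 51.1 CPM in tau-acetate mice. The PBS-control mice lay above the PBS-acetate and the tau-acetate mice without overlap, and the other pairs of groups overlapped. The log2 fold change on acetate was -0.13 (SE 0.09) after PBS and -0.20 (SE 0.09) after tau, with adjusted p-values of 0.432 and 0.421 (edgeR, Benjamini-Hochberg over all genes). Osmr, the oncostatin M receptor (chromosome 15, 6813577 to 6874969, minus strand), was far scarcer than Lifr per length too, at 4.33 to 7.10 CPM in PBS-control, 4.86 to 6.50 CPM in PBS-acetate, 6.64 to 8.49 CPM in tau-control and 6.29 to 7.63 CPM in tau-acetate mice. Its log2 fold change after tau was 0.34 (SE 0.18) on the control diet and 0.24 (SE 0.18) on the acetate diet, with edgeR adjusted p-values of 0.592 and 0.684. Differences of Osmr from -0.04 to 0.73 on the log2 scale lie within the 95% interval of the first comparison, so a change of this size was not resolved.

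Both alpha receptors, which bind a cytokine but do not signal inside the cell, gave no call. Cntfr, the receptor for ciliary neurotrophic factor (chromosome 4, 41657498 to 41697089, minus strand), was at 51.3 to 59.7 CPM in PBS-control, 50.9 to 63.3 CPM in PBS-acetate, 53.1 to 56.8 CPM in tau-control and 55.6 to 66.0 CPM in tau-acetate mice. Its groups overlapped in every comparison, and its largest log2 fold change was 0.14 (SE 0.08) on acetate after tau. Il6ra, the receptor for IL-6 (chromosome 3, 89864059 to 89913196, minus strand), was at 5.53, 5.79 and 6.50 CPM in PBS-control, 5.17, 5.93 and 4.73 CPM in PBS-acetate, 5.12, 7.76 and 7.10 CPM in tau-control and 7.88, 5.87 and 6.74 CPM in tau-acetate mice. Tau-acetate mice were higher than PBS-acetate mice except for 1 that overlapped, at a log2 fold change of 0.37 (SE 0.17) and an edgeR adjusted p of 0.460. At this level, 71 to 159 counts per mouse, counting alone gives a coefficient of variation of 10.1%.

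The kinases, which phosphorylate STAT3 at the receptor, varied little, with coefficients of variation within groups of 2.92% for Jak1 and 6.11% for Jak2. Jak1 (chromosome 4, 101152367 to 101265282, minus strand) was at 222 to 242 CPM in PBS-control, 220 to 235 CPM in PBS-acetate, 237 to 247 CPM in tau-control and 226 to 229 CPM in tau-acetate mice. The tau-acetate mice lay below the tau-control mice without overlap, by -0.09 on the log2 scale (SE 0.05), and the edgeR adjusted p was 0.511. Its 95% intervals over the 4 pairs of groups lay between -0.19 and 0.16 on the log2 scale. Jak2 (chromosome 19, 29251828 to 29313080, plus strand) was at 40.0 to 45.4 CPM in PBS-control, 44.3 to 46.4 CPM in PBS-acetate, 43.4 to 50.1 CPM in tau-control and 43.8 to 49.8 CPM in tau-acetate mice, with overlap in every comparison and 95% intervals between -0.16 and 0.26. The gene body of Jak1, introns included, overlaps a processed pseudogene on the same strand. Whether the pseudogene touches a Jak1 exon or affects the Jak1 count was not tested.

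Stat3, the transcription factor of the pathway (chromosome 11, 100885098 to 100939540, minus strand), was the one gene of the 8 tested that was called in a comparison. Its level was 61.3, 67.8 and 67.2 CPM in PBS-control, 54.7, 50.5 and 59.0 CPM in PBS-acetate, 56.0, 51.1 and 64.7 CPM in tau-control and 81.4, 66.1 and 64.9 CPM in tau-acetate mice. It was lower on acetate than on control diet in all PBS-injected mice and higher on acetate in all tau-injected mice, in both cases without overlap. In tau-injected mice the gap, 64.9 against 64.7 CPM at the nearest mice, was smaller than the spread within either group. The means were 65.4 ± 3.59 CPM, 54.7 ± 4.27 CPM, 57.3 ± 6.87 CPM and 70.8 ± 9.19 CPM in the same order. The diet effect in tau-injected mice exceeded that in PBS-injected mice by 0.57 on the log2 scale (SE 0.14, 95% interval 0.27 to 0.86), and this interaction was called at an adjusted p of 0.0797 (edgeR, Benjamini-Hochberg). None of the 4 single comparisons passed: the log2 fold change on acetate was -0.26 (SE 0.10) after PBS and 0.31 (SE 0.10) after tau, with edgeR adjusted p-values of 0.144 and 0.276, and after tau it was 0.38 (SE 0.10) on acetate and -0.19 (SE 0.10) on control diet, with 0.177 and 0.571. The interaction lost its call without any 1 of 7 mice, with edgeR adjusted p-values of 0.142 and 0.147 without PBS-control mouse 2 or 3, 0.130 and 0.215 without PBS-acetate mouse 1 or 2, 0.150 and 0.171 without tau-control mouse 1 or 2, and 0.165 without tau-acetate mouse 1, the highest of all. Without tau-acetate mouse 3, the one high in choroid plexus markers, it was 0.62 with an edgeR adjusted p of 0.0299. Stat3 overlaps Stat5a on the opposite strand, and counting used the strand.

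Socs3, the inhibitor that STAT3 itself induces (chromosome 11, 117966079 to 117970047, minus strand), was the scarcest of the 9 genes, with 9 to 37 counts per mouse. It was at 2.15, 1.54 and 1.15 CPM in PBS-control, 0.78, 1.29 and 0.57 CPM in PBS-acetate, 1.30, 1.06 and 1.14 CPM in tau-control and 0.69, 1.27 and 0.71 CPM in tau-acetate mice. PBS-control mice held the 2 highest values, and 1 mouse of each other group lay within the PBS-control range. The log2 fold change on acetate after PBS was -0.86 (SE 0.37), with an edgeR adjusted p of 0.189. Counting alone gives this gene a coefficient of variation of 23.6%, and the mice of a group varied by 31.5%. The interaction, 0.46 with a 95% interval from -0.66 to 1.58, was not resolved at this depth.

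**Figure D3:**
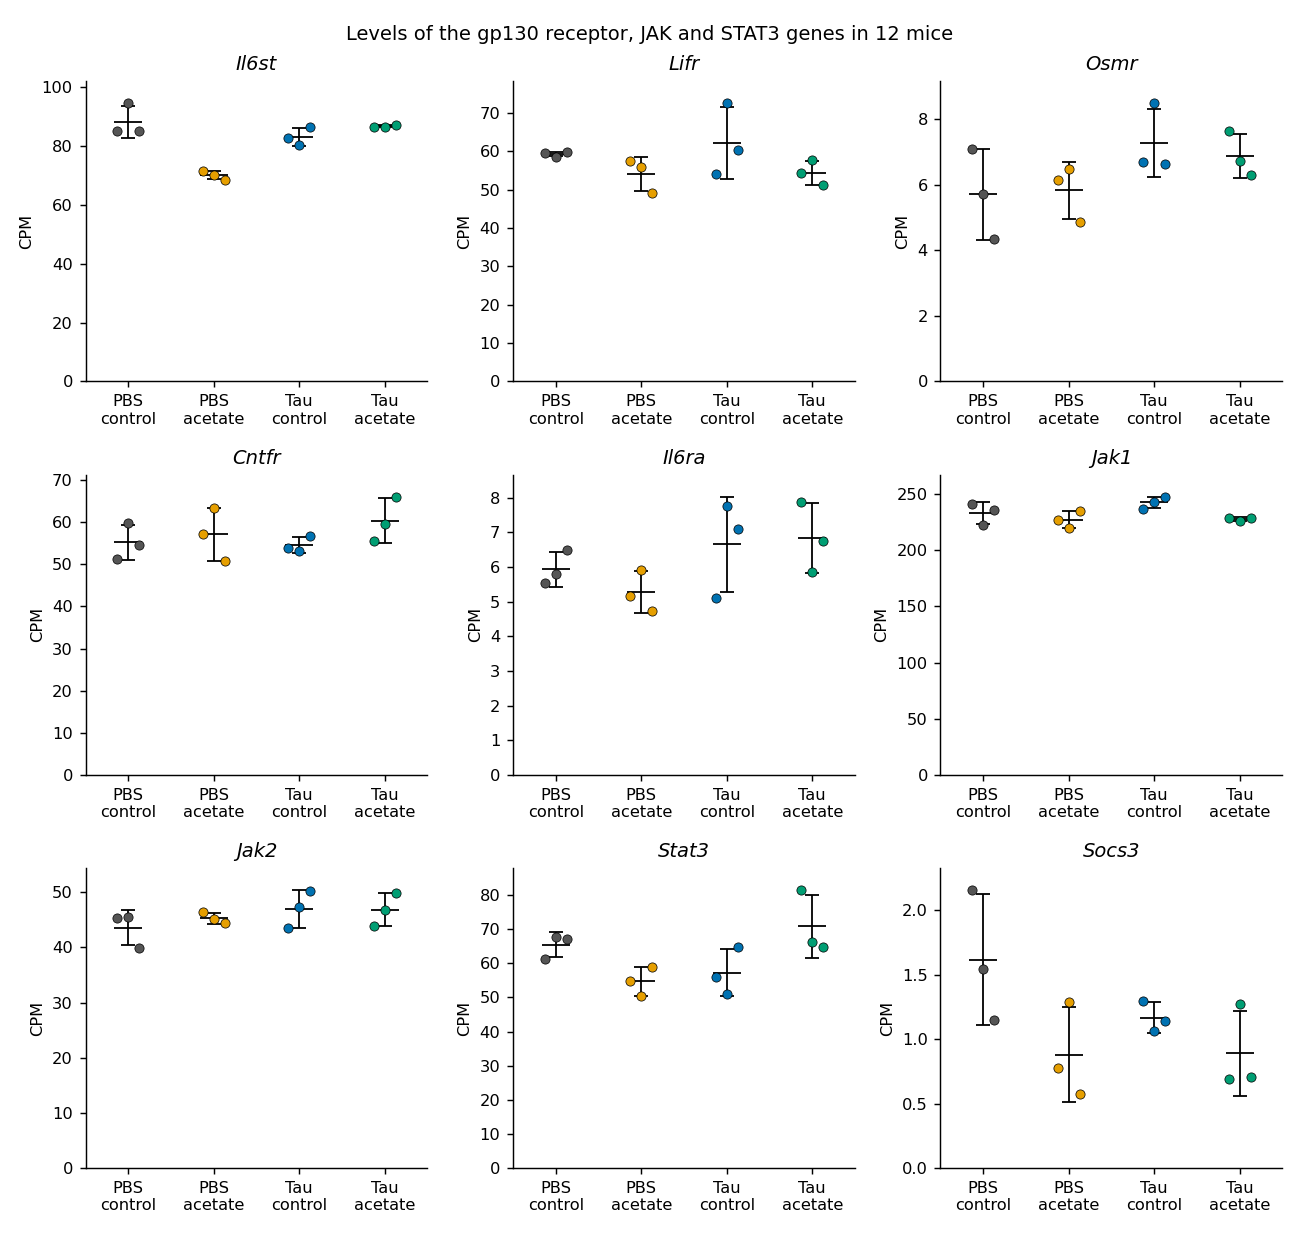
CPM of each of the 9 genes in 12 mice by group (points), with the group mean and SD (bars, n = 3) and axes from 0. Il6st is low in the 3 PBS-acetate mice, at 68.5 to 71.4 CPM. Stat3 has lower means in PBS-acetate and tau-control mice than in the other groups. Lifr, Cntfr, Jak1 and Jak2 differ little between groups.

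Over the 8 genes besides Il6st, none was called by edgeR after tau on the control diet, where 0.0136% of all genes were called, all lower, nor on the acetate diet, where 0.136% were (0.0882% higher and 0.0475% lower). None was called between the diets in PBS-injected mice, against 8.84% of all genes (3.99% higher and 4.85% lower on acetate), or in tau-injected mice, against 0.0611% (0.0407% higher and 0.0204% lower). At an unadjusted p under 0.05 the counts were 0, 2, 2 and 2 of 8 in this order, against 9.65%, 10.3%, 20.8% and 10.9% of all genes, so that the count on acetate after PBS was near the background. With DESeq2, Stat3 was called after tau on the acetate diet, at an adjusted p of 0.0431, and in a fit of only the 6 PBS-injected mice edgeR called it lower on acetate, at an adjusted p of 0.0482. For the interaction 1 of 8 was called, Stat3, against 1.56% of all genes (1.11% positive and 0.448% negative). The groups did not overlap for 0, 1, 2 and 2 of the 8 genes in the 4 pairs of groups, against 13.5%, 16.2%, 26.3% and 14.4% of all genes. The diets differed without overlap in opposite directions after PBS and after tau for 1 of the 8, Stat3, against 1.17% of all genes. The median log2 fold change of the 8 genes was 0.06 after tau on either diet, -0.08 on acetate after PBS, -0.04 on acetate after tau and 0.02 for the interaction, and the medians over all genes lay between -0.0053 and 0.0042. The 4 pairs share their groups, so these counts are not independent of each other. Nor are they independent of the earlier results known when the genes were chosen.

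**Figure D4:**
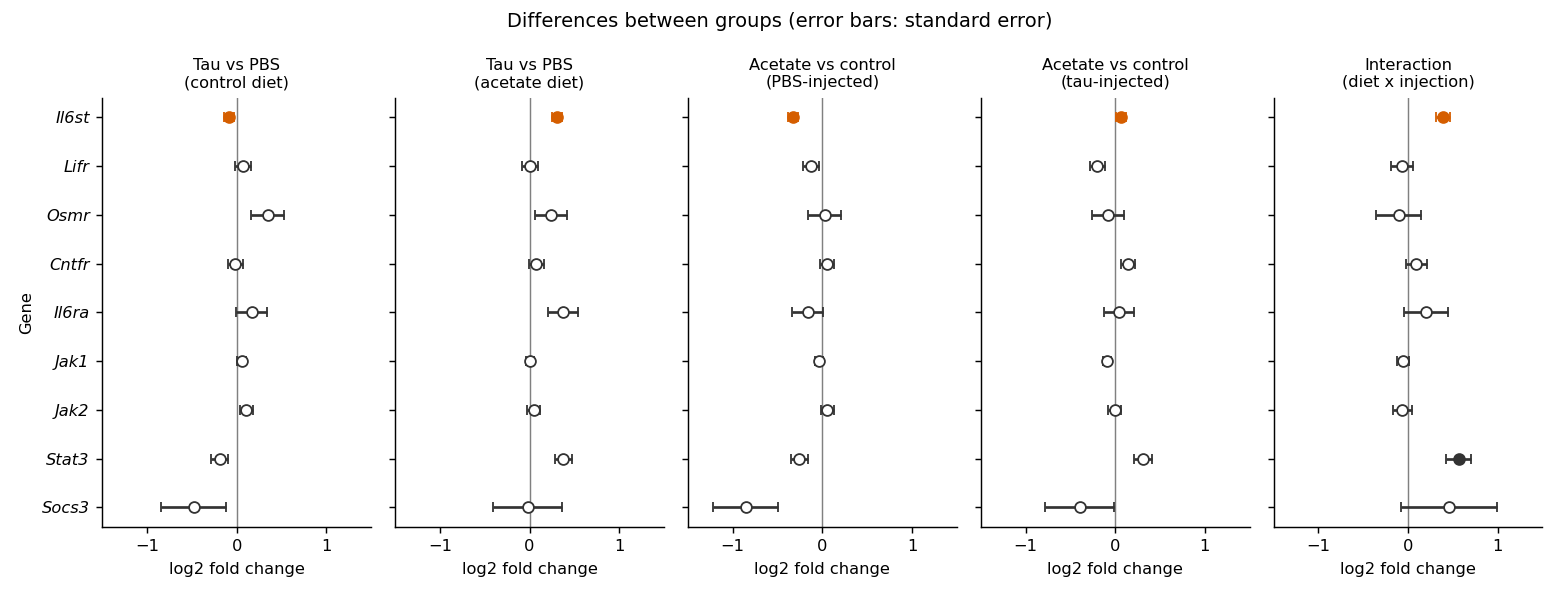
Log2 fold change (point) and standard error (bar) of the 9 genes in the 4 pairs of groups and for the interaction of diet and injection. Filled black marks an edgeR adjusted p below 0.1, which only the Stat3 interaction reached, open circles mark no call, and orange marks Il6st, which was not tested.

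The wider pathway was followed in 5 lists of 60 genes, of which 49 passed the filter on low counts. Of these 49, edgeR called 0 after tau on control diet, 1 higher after tau on acetate diet, 1 higher and 2 lower on acetate in PBS-injected mice, 0 on acetate in tau-injected mice, and 2 for the interaction, both positive. Against the share of all genes given above, the count on acetate in PBS-injected mice, 3 of 49, was near the background. The median log2 fold change of the 49 was -0.06, 0.06, -0.05, 0.10 and 0.14 in the same order. At an unadjusted p under 0.05 the counts were 6, 7, 6, 11 and 9 of 49, against 13% of all genes for the interaction and the shares given above for the pairs of groups, and the count on acetate after PBS was below the background.

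No ligand gene was called in any comparison, and 5 of 11 passed the filter. Of these, Lif, Ctf1, Clcf1 and Ebi3 had means of 0.648 to 1.20 CPM. The largest difference among the ligands tested was the interaction of Clcf1, which encodes cardiotrophin-like cytokine, at 1.21 on the log2 scale (SE 0.74) with an edgeR adjusted p of 0.527. Of the 4 other receptors and the proteases that shed IL6RA, none was called. The one that differed most was Il27ra, the receptor that pairs with gp130 for interleukin-27, at 1.69, 1.78 and 1.90 CPM in PBS-control, 3.75, 2.32 and 2.75 CPM in PBS-acetate, 2.16, 1.92 and 2.67 CPM in tau-control and 1.54, 1.33 and 1.67 CPM in tau-acetate mice. It was thus higher on acetate after PBS and lower on acetate after tau, in both cases without overlap, the opposite directions to Stat3, at an interaction of -1.28 (SE 0.36) and an edgeR adjusted p of 0.117.

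Among the other JAK kinases, STAT factors and adaptors, 1 of 12 tested genes was called on acetate after PBS, near the 8.84% of all genes, and the same gene for the interaction, against 1.56%. It was Gab1. Gab1, a docking protein that couples gp130 to the MAP kinase and PI3 kinase branches, was at 50.8, 47.1 and 46.1 CPM in PBS-control, 36.7, 35.6 and 30.7 CPM in PBS-acetate, 38.7, 32.0 and 44.7 CPM in tau-control and 53.8, 50.1 and 38.5 CPM in tau-acetate mice. The PBS-control mice lay above the PBS-acetate mice without overlap, and the tau groups overlapped. Gab1 fell on acetate in PBS-injected mice, at a log2 fold change of -0.48 (SE 0.13) and an edgeR adjusted p of 0.0596, and its interaction was 0.79 (SE 0.19) with an edgeR adjusted p of 0.0803. The first call was lost without any 1 of the 6 PBS-injected mice, at edgeR adjusted p-values of 0.106 to 0.198, and the second without any 1 of 10 of the 12 mice, at 0.114 to 0.200. It held without tau-control mouse 3 or tau-acetate mouse 3, and without the filter on low counts it was 0.114. Ptpn11 encodes the phosphatase SHP2, which binds gp130 and works with Gab1. Its mean was also lower in PBS-acetate and tau-control mice than in the others, though the differences were small. Ptpn11 was at 251 to 267 CPM, 241 to 245 CPM, 231 to 254 CPM and 260 to 274 CPM in the same order of groups. Its interaction was 0.22 (SE 0.07), with an edgeR adjusted p of 0.152.

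Of 13 tested inhibitors, none was called in any comparison. Socs2, an inhibitor of growth hormone signalling, had the largest difference, -0.86 on the log2 scale (SE 0.28) on acetate after PBS, with an edgeR adjusted p of 0.120. It was at 12.9 to 17.5 CPM in PBS-control and 5.67 to 11.7 CPM in PBS-acetate mice, without overlap.

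Of 15 tested STAT3 target genes, 2 were called on acetate after PBS, Vim lower and Bcl6 higher, against 8.84% of all genes. Vim was also the 1 of 15 called after tau on acetate, against 0.136%, and for the interaction, against 1.56%. Vim, which encodes vimentin, an intermediate filament of reactive astrocytes and of vascular cells, was at 50.9, 47.7 and 45.7 CPM in PBS-control, 39.5, 33.9 and 33.7 CPM in PBS-acetate, 41.9, 35.7 and 40.4 CPM in tau-control and 66.1, 47.1 and 52.4 CPM in tau-acetate mice. Both the PBS-acetate and the tau-control mice lay below every PBS-control mouse and every tau-acetate mouse. Vim fell on acetate in PBS-injected mice, at a log2 fold change of -0.43 (SE 0.11, edgeR adjusted p 0.0445), and was higher after tau on the acetate diet, at 0.63 (SE 0.11, edgeR adjusted p 0.0593). Its interaction was 0.93 (SE 0.15), with an edgeR adjusted p of 0.0357. The tau call on acetate was lost without any 1 PBS-acetate mouse, at edgeR adjusted p-values of 0.165, 0.442 and 0.212, without tau-control mouse 3, at 0.121, and in a fit of the 6 acetate-fed mice, at 0.161. The interaction was lost only without PBS-acetate mouse 2 (0.146), and the diet call after PBS without that mouse (0.200) or PBS-control mouse 1 or 3 (0.118 and 0.104). The remaining differences were -0.29 (SE 0.11) after tau on control diet and 0.49 (SE 0.11) on acetate after tau, with edgeR adjusted p-values of 0.409 and 0.168.

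Bcl6, a repressor of transcription whose promoter above holds 3 copies of the motif, moved the other way on acetate after PBS. It was at 51.0, 58.6 and 56.0 CPM in PBS-control and 72.1, 76.7 and 65.8 CPM in PBS-acetate mice, without overlap, and at 56.6 to 68.0 CPM in tau-control and 64.4 to 82.0 CPM in tau-acetate mice. Bcl6 rose on acetate in PBS-injected mice, at a log2 fold change of 0.38 (SE 0.09) and an edgeR adjusted p of 0.0383, and its interaction was -0.17 (SE 0.13), with 0.636. After tau its difference on acetate was 0.20 (SE 0.09, edgeR adjusted p 0.431), of the same sign as that of Vim. The call was lost without PBS-control mouse 1 or 3 (edgeR adjusted p 0.111 and 0.122) or PBS-acetate mouse 1 or 2 (0.115 and 0.191). Gfap, the astrocyte filament gene that STAT3 is best known to drive in the brain, was at 522 to 592 CPM, 477 to 537 CPM, 488 to 556 CPM and 556 to 724 CPM in the same order of groups. Its difference after tau on acetate was 0.33 (SE 0.09), with an edgeR adjusted p of 0.209, and its interaction was 0.42 (SE 0.12), with 0.152. DESeq2 gave adjusted p-values of 0.0355 and 0.0324 for these. Pim1, a survival kinase gene, had the largest interaction of the list, 1.11 (SE 0.35, edgeR adjusted p 0.168), at only 19 to 59 counts per mouse.

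**Figure D5:**
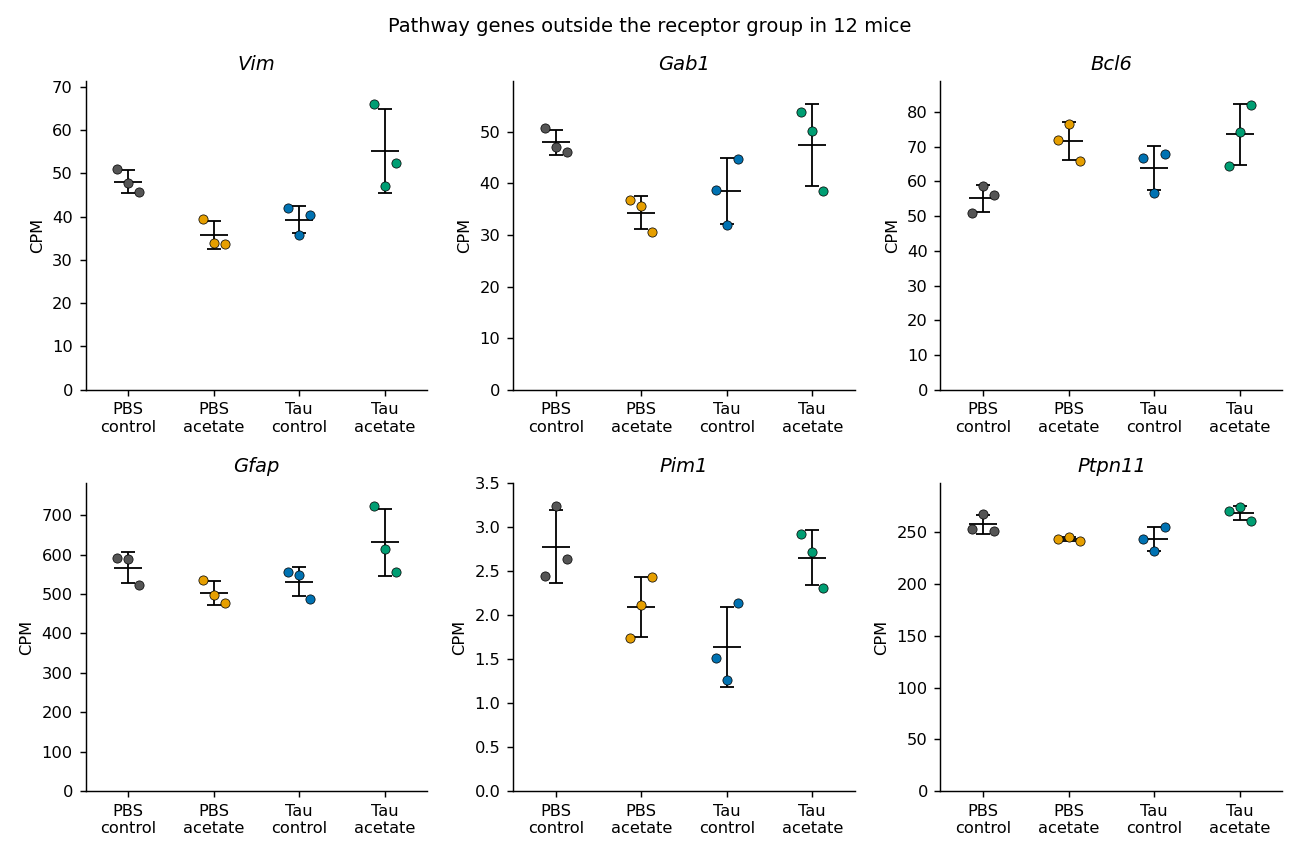
CPM of 6 pathway genes in 12 mice by group (points), with the group mean and SD (bars, n = 3) and axes from 0. Vim is lower in PBS-acetate and tau-control mice than in the other groups, and so is the mean of Gab1. Bcl6 is higher in PBS-acetate than in PBS-control mice.

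Among the 5 genes most like Il6st over the 12 mice, by Pearson correlation of log2 CPM, were Tekt4 (r = 0.942), Mmp15 (0.904), E330009J07Rik (0.877) and Slc38a1 (0.868). These are descriptions over mice that share their groups. With the group means removed, r was 0.562, 0.0903, 0.534 and 0.718. Tekt4 was scarce, at 0.128 to 1.41 CPM. Mmp15, which encodes a membrane-bound metalloproteinase, was at 15.4 ± 0.619 CPM in PBS-control, 11.9 ± 0.526 CPM in PBS-acetate, 14.5 ± 0.919 CPM in tau-control and 15.3 ± 0.363 CPM in tau-acetate mice. Slc38a1, a glutamine transporter gene, was at 194 ± 14.9 CPM, 166 ± 5.80 CPM, 184 ± 13.3 CPM and 188 ± 6.63 CPM in the same order. Within the pathway, r with Il6st was 0.737 for Gab1, 0.713 for Vim and 0.660 for Stat3, which ranked 154, 206 and 423 of the tested genes. The other members lay between 0.104 for Jak2 and 0.466 for Il6ra, and Bcl6 was at -0.286. With the group means removed, r was 0.317 for Gab1, 0.174 for Vim, 0.350 for Stat3 and 0.553 for Bcl6, and the other members lay between -0.587 for Jak1 and 0.598 for Cntfr.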

How the data were processed

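RNA-seq libraries from 12 mice, 3 per group, were analysed, and groups were taken from the sample titles. Per the labels and the study's methods, the authors aligned polyA, strand-specific reads with STAR 2.5.2a to GRCm38 and counted exon reads per gene with HTSeq 0.9.1. They deposited raw counts, 1 column per mouse, and the annotation is not given in the sources used here. Further computations were run in R 4.3.3. Genes were filtered with filterByExpr (minimum count 10, minimum total 15), scaled by TMM (factors 0.99 to 1.01) and tested with the robust quasi-likelihood F test of edgeR 4.0.16, with 1 mean per group over all 12 mice and 8 residual degrees of freedom. Adjusted p is by Benjamini-Hochberg over the 14742 genes, and a gene was called when it was below 0.1. Interactions are the diet effect after tau minus that after PBS. CPM uses TMM-scaled totals, and exon lengths and coordinates came from GENCODE mouse annotation on GRCm38.

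The members and lists were chosen with earlier results of these data known. The genes named were the 9 members, list genes past the threshold or with the largest change in a list, and the 5 genes most correlated with Il6st (prior count 2). Some others (Gfap, Ptpn11 and the ligands with few counts) were named after their values were seen, and 2 genes that the rule or lists hold are not reported here. The edgeR fit was run on simulated independent counts with changes put into the tau-acetate group alone. This does not test the fit against outlying single mice like those seen here. Alternatives were other size factors, no filter, DESeq2 1.42.0, a threshold of 0.05, fits of only the 6 compared mice, a replicate block, and leaving out each mouse. Replicates are separate mice by the labels.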

Additional observations from a re-analysis of the deposited data

Results flagged for a closer look

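The effect of acetate after tau differed by a test from that after PBS for 3 genes, and 4 others stood out by their values alone. The edgeR interaction was past the threshold for Stat3 (0.57, adjusted p 0.0797), Gab1 (0.79, adjusted p 0.0803) and Vim (0.93, adjusted p 0.0357). In Il6st, which was picked for its pattern and not tested, all PBS-injected mice were lower and all tau-injected mice higher on acetate, with a difference of 0.39 on the log2 scale (SE 0.08). Nearly all of it came from the PBS arm, since in the tau arm Il6st differed by 0.06 (SE 0.06), with 86.5 against 86.4 CPM at the nearest mice. In Pim1 (1.11, adjusted p 0.168), Ptpn11 (0.22, adjusted p 0.152) and Il27ra (-1.28, adjusted p 0.117) the mice of the PBS and tau arms moved in opposite directions without overlap between the diets, and the edgeR interaction did not pass. Of the 57 tested member and pathway genes besides Il6st, 5 (these 3, Stat3 and Vim) moved in opposite directions without overlap, against 1.17% of all genes. For Stat3 the nearest tau-injected mice of the 2 diets were at 64.9 and 64.7 CPM. Members and lists were chosen with earlier results of these data known, so this count is not independent of the data. The interaction was also above 0 in 6 of 6 oligodendrocyte markers (median 1.07) and 4 of 4 CA3 markers (median 0.59), none of them called. It was above 0 in 5 of 6 choroid plexus markers (median 1.09) and 5 of 8 astrocyte markers (median 0.125), with 1 called higher in each list. In 6 of 6 mural cell markers it was below 0 (median -0.25), none of them called. The same sign was seen in 4 of 5 CA1 markers (median -0.28) and 4 of 5 inhibitory neuron markers (median -0.13), none of them called. The part of all these markers in these values was not tested. With PBS-acetate mouse 2 left out, the adjusted p was 0.215 for Stat3, 0.200 for Gab1 and 0.146 for Vim.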

How the results depend on the processing

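Read depth limited Socs3, Pim1, Il27ra and most ligands. Numbers of genes called over the whole table moved with the tool and threshold. For tau on control diet 2 genes were called, against 100 with DESeq2, 35 with the 6 compared mice, 0 at 0.05 and 9 with the replicate block. For tau on acetate diet 20 were called, against 37 without the filter, 130 with DESeq2 and 0 at 0.05. For acetate after PBS 1303 were called, against 541 at 0.05. For acetate after tau 9 were called (6 higher, 3 lower), against 56 without the filter, 167 with DESeq2, 2 with 6 mice and 3 at 0.05, and the other size factors gave 6 higher and 6 lower. For the interaction 230 were called, against 472 with DESeq2, 43 at 0.05 and 349 with the replicate block. Among the 8 members, DESeq2 called 1 for tau on acetate diet, the 6-mouse fit 1 for acetate after PBS, and 0.05 left 0 for the interaction. Among the 49 pathway genes, the count for tau on acetate diet (1) became 3 with DESeq2, 0 with 6 mice, 0 at 0.05 and 2 with the replicate block, that for acetate after PBS (3) became 5 with DESeq2 and 5 with 6 mice, that for acetate after tau (0) became 1 without the filter, with DESeq2 and with the replicate block, and that for the interaction (2) became 1 without the filter, 4 with DESeq2 and 1 at 0.05. The cause of these shifts was not tested.

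When 1 mouse was left out at a time, the genes called ranged from 0 to 16, 0 to 93, 15 to 1425, 1 to 66 and 8 to 442 in the 5 comparisons in the same order. For acetate after PBS the number was 15 without PBS-acetate mouse 2, 315 without PBS-acetate mouse 1, 248 without PBS-control mouse 3 and 727 without PBS-control mouse 1, and for the interaction it was 8 without PBS-acetate mouse 2 and 22 without tau-acetate mouse 1. The members called ranged from 0 to 1 for acetate after PBS and for the interaction, and the pathway genes called from 0 to 3, 0 to 5, 0 to 1 and 0 to 4 in the last 4 comparisons. Log2 differences near 0 changed sign when a mouse was left out. After tau on control diet these were Cntfr (-0.069 to 0.045) and Lifr (-0.055 to 0.16), and after tau on acetate Bcl6 (-0.049 to 0.13), Jak1 (-0.019 to 0.031), Jak2 (-0.0014 to 0.093), Lifr (-0.059 to 0.045) and Socs3 (-0.36 to 0.39). On acetate after PBS these were Cntfr (-0.026 to 0.13), Jak2 (-0.0041 to 0.091) and Osmr (-0.14 to 0.23), on acetate after tau Il6ra (-0.11 to 0.17), Jak2 (-0.055 to 0.047) and Osmr (-0.16 to 0.048), and for the interaction Lifr (-0.16 to 0.059) and Osmr (-0.31 to 0.060). Jak2 on acetate after tau was also 0.0015 without the filter. Same-numbered mice showed little shared deviation (r from -0.105 to 0.144 over 18 pairs, 2 above 0.1). With 3 mice per group this cannot exclude a pairing or a shared batch by number. With the replicate block the Stat3 interaction had an adjusted p of 0.0570 by edgeR.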
